A study of Mus musculus with 6 samples.

Results

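The matrix metalloproteinases (MMP), the ADAMTS proteases and the tissue inhibitors of metalloproteinases (TIMP) were followed in mouse embryonic fibroblasts (MEF) that lacked either TIA1 or TIAR. Members were all genes on the array whose symbol was Mmp, Adamts or Timp followed by a family number, and 46 of the 34797 gene names on the array met this rule, 23 MMP, 19 ADAMTS and 4 TIMP genes. They were covered by 66 of 55681 probes, with 1 probe for 26 genes and 2 probes for the other 20. A gene was read from its brightest probe, and a second probe that gave another answer is described beside it.

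MMPs are zinc endopeptidases that cut collagens and other proteins of the extracellular matrix. Most are secreted or membrane-bound as inactive proenzymes, which are switched on by removal of a propeptide. ADAMTS proteases are secreted relatives with thrombospondin repeats, and some of them trim procollagens while others cut large proteoglycans. TIMPs bind the active site of these enzymes, and fibroblasts are a main source of both the proteases and their inhibitors.

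TIA1 and TIAR are related RNA-binding proteins that act on splicing, translation and mRNA stability. Total RNA of immortalized MEF was hybridized to 6 single-dye arrays, with 2 arrays from separate samples for each of 3 groups, wild-type (WT), TIA1 knockout (TIA1 KO) and TIAR knockout (TIAR KO), none of them treated. The labels give W4 as the strain of WT MEF, BALB/c for TIA1 KO MEF and C57BL/6 for TIAR KO MEF, so the effects of genotype, of strain and of cell line cannot be told apart. The arrays shared 1 slide, on which those of TIA1 KO MEF took row 2 and the other 4 took row 1, and row and TIA1 genotype likewise cannot be told apart. Both knockouts were compared with the same 2 WT arrays.

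Values are normalized log2 signals, and a difference of 1 is a 2-fold change. A gene was called higher or lower when limma, fitted on all probes, passed 2 limits, an adjusted p (Benjamini-Hochberg) under 0.05 and a fold above 2. With 2 samples per group, these p-values measure only the spread between those samples. Between 16000 probes, on TIA1 KO replicate 1, and 26254 probes, on WT replicate 2, were rated well above background by the scanner software. Where a gene was not well above background on either array of its lower group, the fold is a bound. It sets the mean of the higher group against a mean in which each dim array takes the lowest signal rated well above background on it, or the probe's own signal where that was higher.

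The knocked-out genes were read first. The brightest Tia1 probe gave 7.87 and 8.44 in TIA1 KO MEF against 10.72 and 8.54 in WT MEF and 9.56 and 9.58 in TIAR KO MEF, and the difference from WT of -1.47 ± 0.79 (SE, n = 2) was not called (limma adjusted p = 0.288). Of the other 2 Tia1 probes, which were not called either, one differed from WT by -1.62 and the other by 0.87. Tial1, which encodes TIAR, gave 10.00 and 9.65 in TIAR KO MEF by its second probe against 11.71 and 11.09 in WT MEF, a called difference of -1.58 ± 0.26 (SE, n = 2; limma adjusted p = 0.0254). Its brightest probe lay 2.63 lower without a call, and had no value on WT replicate 1, where the spot was an outlier. Whether these probes lie in the deleted parts of the genes is not given in the sources used here.

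The cells were checked against 12 fibroblast markers. Well above background were 9 and 10 of them with WT RNA, 10 and 11 with TIA1 KO RNA, and 12 and 11 with TIAR KO RNA. Pdgfra, the receptor by which fibroblasts are often sorted, was well above background on neither WT array, with 6.37 and 6.40 there against 10.05 and 10.23 with TIA1 KO RNA and 11.68 and 11.51 with TIAR KO RNA. Thy1, another fibroblast surface marker, was at 6.63 and 6.98 with WT RNA, 7.11 and 7.48 with TIA1 KO RNA, and 14.84 and 14.74 with TIAR KO RNA. Vimentin (Vim), a filament protein of mesenchymal cells, lay between 17.24 and 17.89 on all 6 arrays.

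Across the family, 23 genes stood well above background on both arrays of some group, 10 on single arrays but never both of a group, and 13 on no array. By group, 12 of the 46 genes had such signal on both WT arrays, 11 on both TIA1 KO arrays and 22 on both TIAR KO arrays. On single arrays it was 13 and 18 genes with WT RNA, 13 and 13 with TIA1 KO RNA, and 25 and 25 with TIAR KO RNA. Of all probes, 42.3% and 47.2% were well above background with WT RNA, and 44.5% and 46.7% with TIAR KO RNA. With TIA1 KO RNA fewer probes of any kind were, 28.7% and 35.8%. No member probe was saturated, and 1 value was missing because its spot was an outlier. In bulk RNA, fewer cells of a kind and less RNA per cell cannot be told apart.

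In TIA1 KO MEF, 6 of the 46 genes were higher and 2 lower than in WT MEF, or 17.4%, while 4.51% of all gene names were called in this comparison (2.88% higher and 1.63% lower). The higher genes were Adamts2, Adamts14, Adamts5, Mmp14, Mmp23 and Timp2, and the lower ones were Mmp2 and Mmp25. The median log2 difference over the 46 genes was 0.24, and -0.07 over all gene names. With arrays scaled to a common median it was -0.12 over the 46 genes and -0.67 over all probes. With the processed intensities of the scanner software it was 2.75 over the 46 genes and 1.98 over all probes. All 8 calls were lost without WT replicate 1, without WT replicate 2 and with the processed intensities. For each of the 8 genes the WT arrays lay closer to each other than to the TIA1 KO arrays, such as 11.82 and 11.99 for Mmp2. A call selects for such closeness, so it is no separate support for the calls. More genes were called higher without TIA1 KO replicate 2. The 2 groups did not overlap for 31 of the 46 genes (67.4%), against 65.7% of all gene names.

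In TIAR KO MEF, 16 genes were higher and 2 lower than in WT MEF, or 39.1%, against 7.18% of all gene names (4.36% higher and 2.82% lower). Of the 8 genes called in TIA1 KO MEF, all but Timp2 were also called here in the same direction, a count that rests on the shared WT arrays. Added to them were Adamts1, Adamts4, Adamts7, Adamts9, Adamts10 and Adamts16, and Mmp3, Mmp11, Mmp13, Mmp17 and Timp3. The median log2 difference was 0.33 over the 46 genes and -0.01 over all gene names. With the processed intensities it was 1.03 over the 46 genes and -0.04 over all probes. The groups did not overlap for 33 genes (71.7%), against 51.0% of all gene names.

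In the direct comparison, which does not use the WT arrays, 5 genes were higher in TIAR KO than in TIA1 KO MEF, or 10.9%, against 4.18% of all gene names (2.06% higher and 2.12% lower). They were Adamts1, Adamts2, Adamts16, Mmp13 and Mmp23. No gene was called lower by limma, and 4 were lower at an unadjusted p under 0.05. The knockouts did not overlap for 34 of the 46 genes (73.9%), against 61.4% of all gene names. All 5 calls were lost without either TIAR KO array. These arrays lay close together for each gene, such as 10.25 and 10.21 for Mmp13, but a call selects for such closeness. A group of 1 array has no spread of its own in such a fit. The numbers called higher and lower also changed without TIA1 KO replicate 1 or 2. The balance also turned on the scaling, with 1 gene higher and 2 lower by the processed intensities (6 and 16 at an unadjusted p under 0.05) and 12 higher and none lower by limma with a common array median (16 and 1 at an unadjusted p under 0.05). The whole array moved the same way. The median difference over all probes was 0.05 as reported, -1.85 with the processed intensities and 0.63 with a common array median. The share of all gene names called under these 2 scalings is not reported here.

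**Figure D1:**
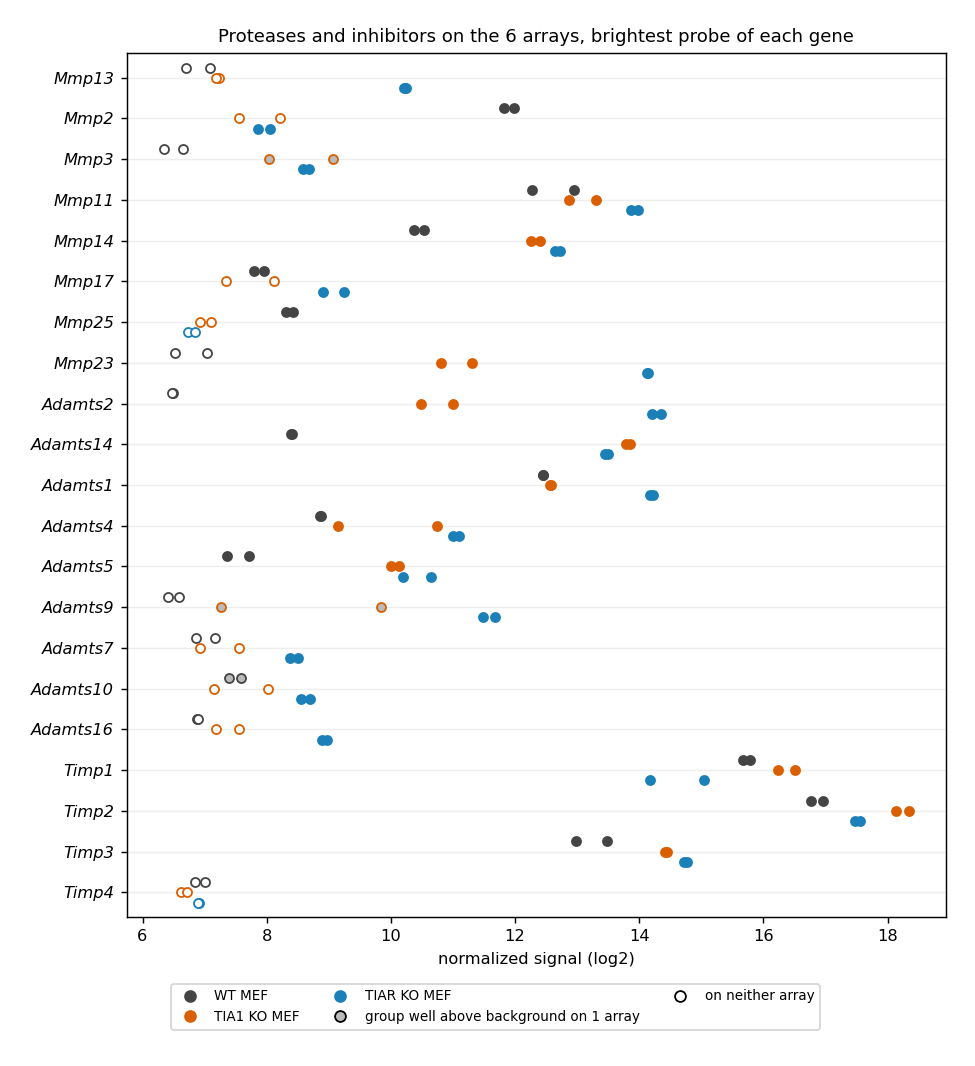
Normalized log2 signal (horizontal axis) of the brightest probe of the 17 called protease genes and the 4 TIMP genes on each of the 6 arrays, 1 point per array, coloured by group and ordered by role. Points are filled where the group was well above background on both arrays, grey inside where on 1 array, and open where on neither. Adamts2 and Mmp23 step up from WT (black, open) through TIA1 KO (orange) to TIAR KO (blue), and Mmp2 sits near 12 only in WT MEF.

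The collagenases, which make the first cut through fibrillar collagen, were represented by Mmp13, Mmp8, Mmp1a and Mmp1b. Mmp13 (probe at chr9:7282762-7282821, mm9) gave 7.09 and 6.70 with WT RNA, 7.23 and 7.19 with TIA1 KO RNA, and 10.25 and 10.21 with TIAR KO RNA. Only the TIAR KO arrays were well above background, and they did not overlap the other 4. Mmp13 was at least 9.75-fold higher in TIAR KO than in WT MEF (log2 difference 3.33 ± 0.18, SE, n = 2; limma adjusted p = 0.000786). It was at least 6.14-fold higher in TIAR KO than in TIA1 KO MEF (3.02 ± 0.15, SE, n = 2; limma adjusted p = 0.00829), while TIA1 KO differed from WT MEF by 0.31 ± 0.20 without a call. Mmp8, the collagenase of neutrophils, was uneven within groups, well above background on 1 WT array only. Mmp1a and Mmp1b, related genes whose probes were not checked for shared signal, had signal well above background on no more than 1 array each.

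Mmp13 and Mmp3 lie in a cluster of MMP genes on chromosome 9, and all 10 members there were placed within 415 kb by their probes (chr9:7282762-7697700, mm9). Of these 10 neighbours, Mmp13 and Mmp3 had signal well above background on both arrays of a group, namely TIAR KO MEF. Mmp12 (macrophage elastase), Mmp10 (stromelysin 2), Mmp20 (enamelysin, of teeth) and Mmp27 were well above background on no array. Mmp7 (matrilysin), Mmp8, Mmp1a and Mmp1b were so on 1 array each.

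**Figure D2:**
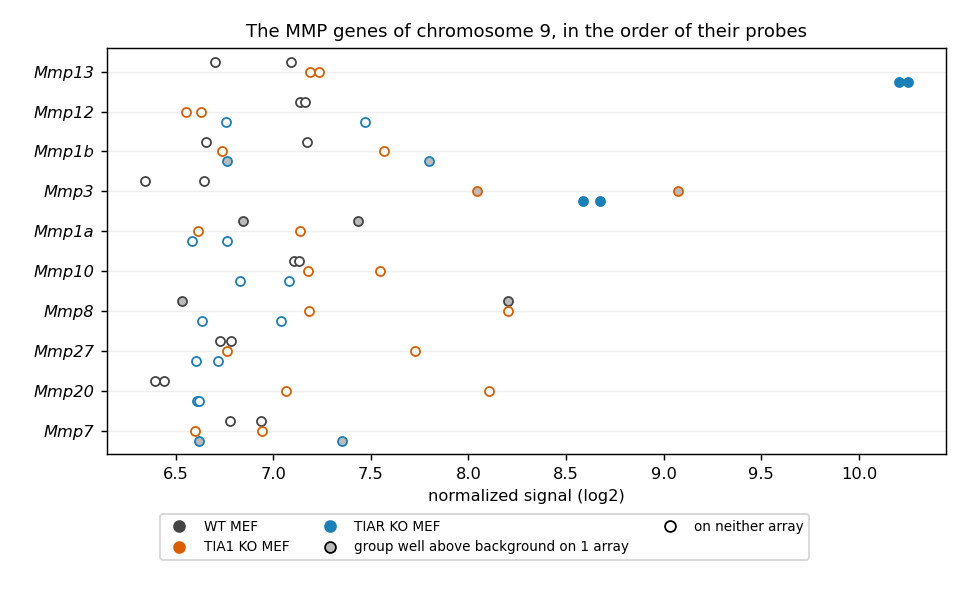
Normalized log2 signal (horizontal axis) of the 10 MMP genes of chromosome 9 on each array, listed in the order of their probes along the chromosome, with colours and fills as in the plot of all called genes. The TIAR KO points of Mmp13, at 10.25 and 10.21, and of Mmp3, at 8.59 and 8.67, are the filled ones.

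Collagenase and stromelysin genes are known for an AP-1 site just before their start, the element to which Fos and Jun proteins bind. The 250 bases before each RefSeq start (GRCm38.p6) were searched for TGACTCA and for its reverse complement TGAGTCA, which covers both strands. The RefSeq table held such windows for 32 of the 46 genes. A match stood in windows of 7 of the 10 genes of the chromosome 9 cluster (Mmp13, Mmp12, Mmp1b, Mmp3, Mmp1a, Mmp10 and Mmp7) and in none of the other 22 genes with a window, while 4.46% of all 32851 windows held one. Mmp12 and Mmp7 had 2 windows each, with a match in 1 of them. These letters were shared by genes with signal and genes without it, and a match describes the sequence only. The 120 bases before the start are shown for the 2 neighbours well above background on both TIAR KO arrays and for 2 that were so on no array (Mmp10) or 1 WT array (Mmp1a), with the match in capitals.
Mmp13 (chr9:7272394-7272513, GRCm38.p6, + strand): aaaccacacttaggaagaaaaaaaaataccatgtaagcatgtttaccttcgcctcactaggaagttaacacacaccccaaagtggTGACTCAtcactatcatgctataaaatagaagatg
Mmp3 (chr9:7445702-7445821, GRCm38.p6, + strand): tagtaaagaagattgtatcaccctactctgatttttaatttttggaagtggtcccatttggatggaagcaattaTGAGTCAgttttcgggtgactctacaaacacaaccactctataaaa
Mmp10 (chr9:7502222-7502341, GRCm38.p6, + strand): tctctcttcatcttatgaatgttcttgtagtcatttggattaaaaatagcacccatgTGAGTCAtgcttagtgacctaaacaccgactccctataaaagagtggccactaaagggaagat
Mmp1a (chr9:7464021-7464140, GRCm38.p6, + strand): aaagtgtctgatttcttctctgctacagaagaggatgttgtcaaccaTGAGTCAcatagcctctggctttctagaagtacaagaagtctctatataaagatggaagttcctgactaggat

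The stromelysins cut proteoglycans, fibronectin and other matrix proteins and can activate procollagenases. Mmp3, stromelysin 1 (chr9:7455751-7455810, mm9), gave 6.65 and 6.35 with WT RNA, 8.04 and 9.07 with TIA1 KO RNA, and 8.59 and 8.67 with TIAR KO RNA. Both knockouts lay above WT, and TIA1 KO replicate 2 was the highest array of the 6. The rise in TIAR KO MEF was called, at least 3.35-fold (2.13 ± 0.17, SE, n = 2; limma adjusted p = 0.00239), whereas the like-sized difference in TIA1 KO MEF, 2.06 ± 0.40 (SE, n = 2), was not (limma adjusted p = 0.0811). Mmp11, stromelysin 3, which is typical of stromal cells around epithelia (chr10:75386024-75386083, mm9), gave 12.94 and 12.28 with WT RNA, 13.31 and 12.86 with TIA1 KO RNA, and 13.99 and 13.87 with TIAR KO RNA. It was 1.32 ± 0.25 higher in TIAR KO than in WT MEF (SE, n = 2; limma adjusted p = 0.0385), but its second probe was not called, at 0.97.

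The gelatinases cut denatured collagen and the collagen of basement membranes, and here only 1 of the 2 had signal. Mmp2, gelatinase A, which fibroblasts usually make in quantity (chr8:95376840-95376899, mm9), gave 11.82 and 11.99 with WT RNA, 7.56 and 8.21 with TIA1 KO RNA, and 7.86 and 8.05 with TIAR KO RNA. The WT arrays stood far above the other 4, and the knockouts overlapped each other. Mmp2 was at least 13.8-fold lower in TIA1 KO than in WT MEF (-4.02 ± 0.27, SE, n = 2; limma adjusted p = 0.0119), as the TIA1 KO arrays were not well above background. In TIAR KO MEF, where both arrays were, the difference was -3.95 ± 0.16 (SE, n = 2; limma adjusted p = 0.000367). The knockouts differed by 0.07 ± 0.28. Mmp9, gelatinase B, lay between 6.93 and 7.04 and was well above background on no array.

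Membrane-type MMPs act at the cell surface. Mmp14, which cuts collagen there and activates the MMP2 proenzyme together with TIMP2 (chr14:55058775-55058834, mm9), gave 10.37 and 10.53 with WT RNA, 12.26 and 12.41 with TIA1 KO RNA, and 12.73 and 12.65 with TIAR KO RNA. All 6 arrays were well above background, and the 3 groups did not overlap. It was higher than in WT MEF by 1.89 ± 0.16 in TIA1 KO MEF (SE, n = 2; limma adjusted p = 0.0190) and by 2.24 ± 0.15 in TIAR KO MEF (SE, n = 2; limma adjusted p = 0.00136). With arrays scaled to a common median the TIA1 KO difference shrank to 0.39 and was not called. Timp2, the third member of that complex, is given with the inhibitors.

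Mmp25, a membrane-type MMP of leukocytes (chr17:23767090-23767149, mm9), gave 8.31 and 8.42 with WT RNA, 6.92 and 7.10 with TIA1 KO RNA, and 6.74 and 6.85 with TIAR KO RNA. The WT arrays alone were well above background. Loss of signal was at least 1.74-fold with TIA1 KO RNA (-1.35 ± 0.16, SE, n = 2; limma adjusted p = 0.0370) and at least 2.63-fold with TIAR KO RNA (-1.57 ± 0.15, SE, n = 2; limma adjusted p = 0.00393). Mmp17, which is anchored by a lipid (chr5:130113835-130113894, mm9), gave 7.79 and 7.95 with WT RNA, 7.34 and 8.11 with TIA1 KO RNA, and 8.91 and 9.25 with TIAR KO RNA, a rise of 1.21 ± 0.18 over WT (SE, n = 2; limma adjusted p = 0.0183). Mmp15 and Mmp16 were well above background on no array. Mmp24 was on 1 WT and 1 TIA1 KO array, with 8.09 and 8.35 in TIA1 KO MEF against 7.23 and 7.40 in WT MEF and no call. With the authors' values Mmp24 was called in TIA1 KO against WT MEF (1.295) and between the knockouts (-1.365). Its second probe was called in neither of these comparisons, with differences of -0.07 and 0.28.

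Mmp23, a small membrane-anchored MMP without the usual hemopexin domain (chr4:155025377-155025436, mm9), gave 7.04 and 6.52 with WT RNA, 11.30 and 10.81 with TIA1 KO RNA, and 14.14 and 14.13 with TIAR KO RNA. The groups stood in that order without overlap. It was at least 17.99-fold higher in TIA1 KO than in WT MEF (4.27 ± 0.29, SE, n = 2; limma adjusted p = 0.0115) and at least 152-fold higher in TIAR KO than in WT MEF (7.35 ± 0.21, SE, n = 2; limma adjusted p = 0.000195). TIAR KO exceeded TIA1 KO MEF by 3.08 ± 0.22 (SE, n = 2; limma adjusted p = 0.0138). Mmp19 was uneven in TIA1 KO MEF, at 9.30 and 7.20, and its 0.76 over WT in TIAR KO MEF missed both limits (limma adjusted p = 0.0547). Mmp21, Mmp12, Mmp20 and Mmp27 were well above background on no array, and Mmp28 on 1.

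The procollagen N-proteinases remove the amino-terminal propeptide of fibrillar procollagens. Adamts2 (chr11:50617472-50617531, mm9) gave 6.49 and 6.47 with WT RNA, 11.00 and 10.49 with TIA1 KO RNA, and 14.36 and 14.21 with TIAR KO RNA. As with Mmp23, the groups stood in this order, well apart. Adamts2 was at least 14.5-fold higher in TIA1 KO than in WT MEF (4.26 ± 0.23, SE, n = 2; limma adjusted p = 0.00737), at least 168-fold higher in TIAR KO than in WT MEF (7.80 ± 0.14, SE, n = 2; limma adjusted p = 0.000176), and higher in TIAR KO than in TIA1 KO MEF by 3.54 ± 0.24 (SE, n = 2; limma adjusted p = 0.0120). Its dimmer probe was called in both TIAR KO comparisons, at least 3.47-fold over WT and at least 2.16-fold over TIA1 KO MEF, but not in TIA1 KO against WT MEF, at 0.40.

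Adamts14 (chr10:60659860-60659919, mm9) gave 8.41 and 8.39 with WT RNA, 13.84 and 13.79 with TIA1 KO RNA, and 13.50 and 13.45 with TIAR KO RNA. Both knockouts were far above WT, and all 6 arrays were well above background. It was higher than in WT MEF by 5.42 ± 0.15 in TIA1 KO MEF (SE, n = 2; limma adjusted p = 0.00362) and by 5.07 ± 0.14 in TIAR KO MEF (SE, n = 2; limma adjusted p = 0.000186), and the knockouts differed by -0.35 ± 0.15 without a call. The second Adamts14 probe lay between 6.85 and 7.47, was well above background on no array and differed by 0.07 and 0.33. Adamts3, the third enzyme of this group, was well above background on no array, with 6.51 to 7.06.

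**Figure D3:**
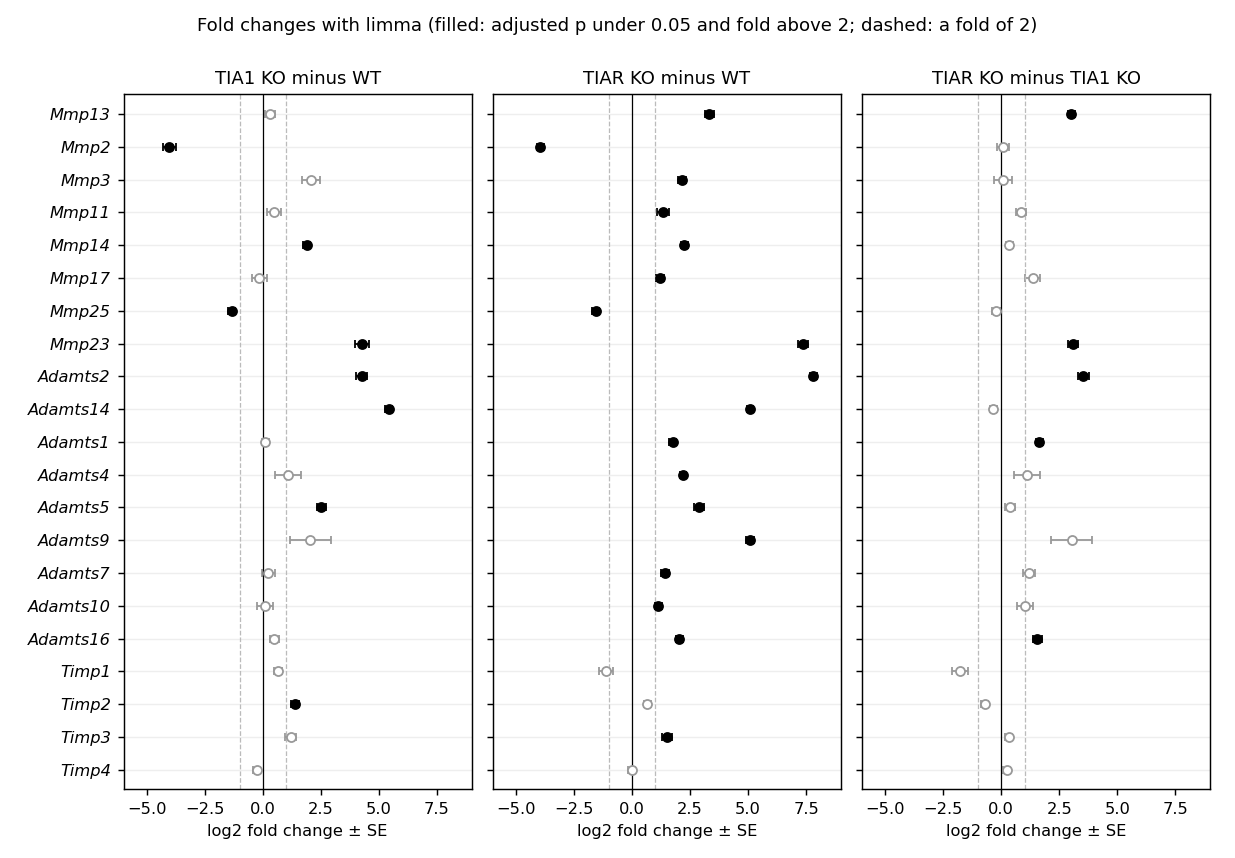
Log2 fold change ± SE (horizontal axis, n = 2 arrays per group) of the 17 called protease genes and the 4 TIMP genes in TIA1 KO against WT (left), TIAR KO against WT (middle) and TIAR KO against TIA1 KO MEF (right). Filled black points were called, open grey points were not, and the dashed lines mark a fold of 2. Mmp2 and Mmp25 lie to the left in both comparisons with WT, and Adamts2, Adamts14 and Mmp23 lie farthest to the right in the left panel.

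The proteoglycanases cut aggrecan and versican. Adamts5 (chr16:85899450-85899509, mm9) gave 7.36 and 7.72 with WT RNA, 10.13 and 10.00 with TIA1 KO RNA, and 10.65 and 10.20 with TIAR KO RNA. Both knockouts lay above WT without overlap, by 2.53 ± 0.20 (SE, n = 2; limma adjusted p = 0.0155) and by 2.88 ± 0.22 (SE, n = 2; limma adjusted p = 0.00229). Its second probe was not called, at 0.01 and 0.71. Adamts1, which also restrains vessel growth (chr16:85795044-85795103, mm9), gave 12.46 on both WT arrays, 12.57 and 12.56 with TIA1 KO RNA, and 14.22 and 14.17 with TIAR KO RNA. TIAR KO MEF stood apart from both other groups, by 1.74 ± 0.14 over WT (SE, n = 2; limma adjusted p = 0.00245) and by 1.63 ± 0.15 over TIA1 KO MEF (SE, n = 2; limma adjusted p = 0.0218), while TIA1 KO differed from WT MEF by 0.11 ± 0.15.

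Adamts4 (chr1:173189952-173190011, mm9) gave 8.87 and 8.85 with WT RNA, 10.74 and 9.15 with TIA1 KO RNA, and 11.00 and 11.10 with TIAR KO RNA. It was higher by 2.19 ± 0.14 in TIAR KO than in WT MEF (SE, n = 2; limma adjusted p = 0.00127), and its TIA1 KO arrays were 1.59 apart. Its second probe was called too, with 8.33 and 8.22 with WT RNA, 6.84 and 7.16 with TIA1 KO RNA, and 11.87 and 11.62 with TIAR KO RNA. By that probe TIAR KO MEF exceeded WT by 3.46 and was at least 17.7-fold above TIA1 KO MEF, both called, whereas TIA1 KO, not well above background, lay 1.28 below WT MEF (limma adjusted p = 0.0514). The probes thus went opposite ways in TIA1 KO MEF, neither with a call, although with the authors' values the second probe was called lower (-1.71).

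Adamts9 (chr6:92723051-92723110, mm9) gave 6.58 and 6.41 with WT RNA, 9.84 and 7.26 with TIA1 KO RNA, and 11.67 and 11.48 with TIAR KO RNA. The TIA1 KO arrays were far apart, and only TIAR KO MEF differed by a call, at least 25.8-fold over WT (5.08 ± 0.16, SE, n = 2; limma adjusted p = 0.000210). The second probe differed by 0.98 there, under the fold limit, and gave its higher TIA1 KO value on the other array, with 7.14 and 8.79. Adamts15 lay 0.86 above WT in TIAR KO MEF, also under the fold limit (limma adjusted p = 0.0374). Adamts8 was well above background on 1 WT and 1 TIAR KO array, and Adamts20 on none.

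Of the 9 other ADAMTS genes, 3 were higher in TIAR KO than in WT MEF, a comparison in which 7.18% of all gene names were called. None was called in TIA1 KO MEF by limma (4.51% of all gene names), where 1 had an unadjusted p under 0.05. Adamts16 (chr13:70867148-70867207, mm9) gave 6.87 and 6.89 with WT RNA, 7.19 and 7.56 with TIA1 KO RNA, and 8.88 and 8.97 with TIAR KO RNA. It was at least 3.70-fold higher in TIAR KO than in WT MEF (2.04 ± 0.14, SE, n = 2; limma adjusted p = 0.00153) and at least 2.19-fold higher than in TIA1 KO MEF (1.55 ± 0.20, SE, n = 2; limma adjusted p = 0.0403), but its second probe was well above background on no array. Adamts7, which cuts cartilage oligomeric matrix protein (chr9:90094878-90094937, mm9), gave 6.86 and 7.16 with WT RNA, 6.92 and 7.55 with TIA1 KO RNA, and 8.50 and 8.38 with TIAR KO RNA, at least 2.40-fold over WT (1.43 ± 0.17, SE, n = 2; limma adjusted p = 0.00924). Adamts10, which binds fibrillin (chr17:33686520-33687435, mm9), gave 7.59 and 7.39 with WT RNA, 7.15 and 8.03 with TIA1 KO RNA, and 8.69 and 8.55 with TIAR KO RNA, 1.13 ± 0.16 over WT (SE, n = 2; limma adjusted p = 0.0148), and its second probe was well above background on no array.

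Adamts13, which cuts von Willebrand factor, had probes that disagreed. By its brightest probe TIAR KO replicate 1 stood at 11.33 and replicate 2 at 7.13, and no comparison was called. By its dimmer probe the TIA1 KO arrays stood at 9.09 and 8.88, against 6.57 and 6.64 in WT MEF and 6.73 and 6.82 in TIAR KO MEF. That probe was at least 4.20-fold higher in TIA1 KO than in WT MEF (2.38 ± 0.16, SE, n = 2; limma adjusted p = 0.0122) and at least 4.04-fold lower in TIAR KO than in TIA1 KO MEF (limma adjusted p = 0.0147). Adamts6 was well above background on both TIAR KO arrays without a call, and Adamts12, Adamts17, Adamts18 and Adamts19 on at most 1 array.

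Of the 4 inhibitors, Timp2 was called higher in TIA1 KO MEF and Timp3 in TIAR KO MEF. Timp2 (chr11:118163146-118163205, mm9) gave 16.97 and 16.77 with WT RNA, 18.14 and 18.34 with TIA1 KO RNA, and 17.56 and 17.48 with TIAR KO RNA. The groups did not overlap, and TIA1 KO MEF was the highest. It was called higher in TIA1 KO MEF, by 1.37 ± 0.17 (SE, n = 2; limma adjusted p = 0.0402), as was its second probe at 1.10, but with arrays scaled to a common median the difference became -0.17 and the call was lost, as it was with the authors' values. In TIAR KO MEF it lay 0.65 ± 0.15 above WT without a call. Timp3, which also inhibits ADAMTS4 and ADAMTS5 and stays bound to the matrix (chr10:85811696-85811755, mm9), gave 12.98 and 13.48 with WT RNA, 14.45 and 14.41 with TIA1 KO RNA, and 14.77 and 14.72 with TIAR KO RNA. The rise in TIAR KO MEF was called (1.51 ± 0.21, SE, n = 2; limma adjusted p = 0.0141), and the difference in TIA1 KO MEF, 1.20 ± 0.22, was not (limma adjusted p = 0.0789). The difference in TIA1 KO MEF was called with all 3 groups in 1 fit. It was also called with a filter on dim probes, which kept those well above background on both arrays of a compared group. Under a common array median the difference in TIA1 KO MEF turned to -0.41, and that in TIAR KO MEF was 1.04 and not called.

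Timp1, the inducible inhibitor, gave 15.78 and 15.67 with WT RNA, 16.52 and 16.23 with TIA1 KO RNA, and 14.18 and 15.04 with TIAR KO RNA. TIAR KO lay below WT and TIA1 KO above it, without overlap and without a call, but with a common array median TIA1 KO lay below WT (-0.88) and the TIAR KO difference of -1.55 was called. The differences were 0.65 ± 0.18 in TIA1 KO MEF (SE, n = 2; limma adjusted p = 0.127), -1.11 ± 0.30 in TIAR KO MEF (SE, n = 2; limma adjusted p = 0.105) and -1.76 ± 0.35 between the knockouts (SE, n = 2; limma adjusted p = 0.0912). Without TIAR KO replicate 2 the TIAR KO difference was -1.55, and without TIA1 KO replicate 2 that between the knockouts was -1.91. A group of 1 array has no spread of its own there and was taken to vary like the other group. With both arrays of each group kept, the Timp1 difference between the knockouts was called with all 3 groups in 1 fit and with the filter on dim probes. Timp4 lay between 6.61 and 7.01 and was well above background on no array.

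Some calls in TIAR KO MEF were lost when a single array was left out. Adamts7 and Timp3 were not called without either TIAR KO array. These 2 arrays lay close together, at 8.50 and 8.38 for Adamts7 and at 14.77 and 14.72 for Timp3, but a call selects for such closeness. Adamts10 and Mmp11 were not called without WT replicate 2 or without either TIAR KO array, with differences of 1.03 to 1.20 for Adamts10 and 0.99 to 1.38 for Mmp11. Mmp17 was not called without WT replicate 1, WT replicate 2 or TIAR KO replicate 2, with differences of 1.04 to 1.29. The other 13 calls kept both limits with each array left out.

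The plot of calls by way of processing shows how the counts over the 46 genes moved. The choice of scale acted mainly on TIA1 KO MEF, where the median difference over all probes was -0.09 as reported, -0.67 with a common array median and 1.98 with the processed intensities. In TIAR KO MEF it was -0.02 under the first 2 of these and -0.04 with the processed intensities. Of the calls in TIAR KO against WT MEF, 4 were lost with all 3 groups in 1 fit and 3 with the processed intensities. A common array median and the mean of a gene's probes each lost 2.

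**Figure D4:**
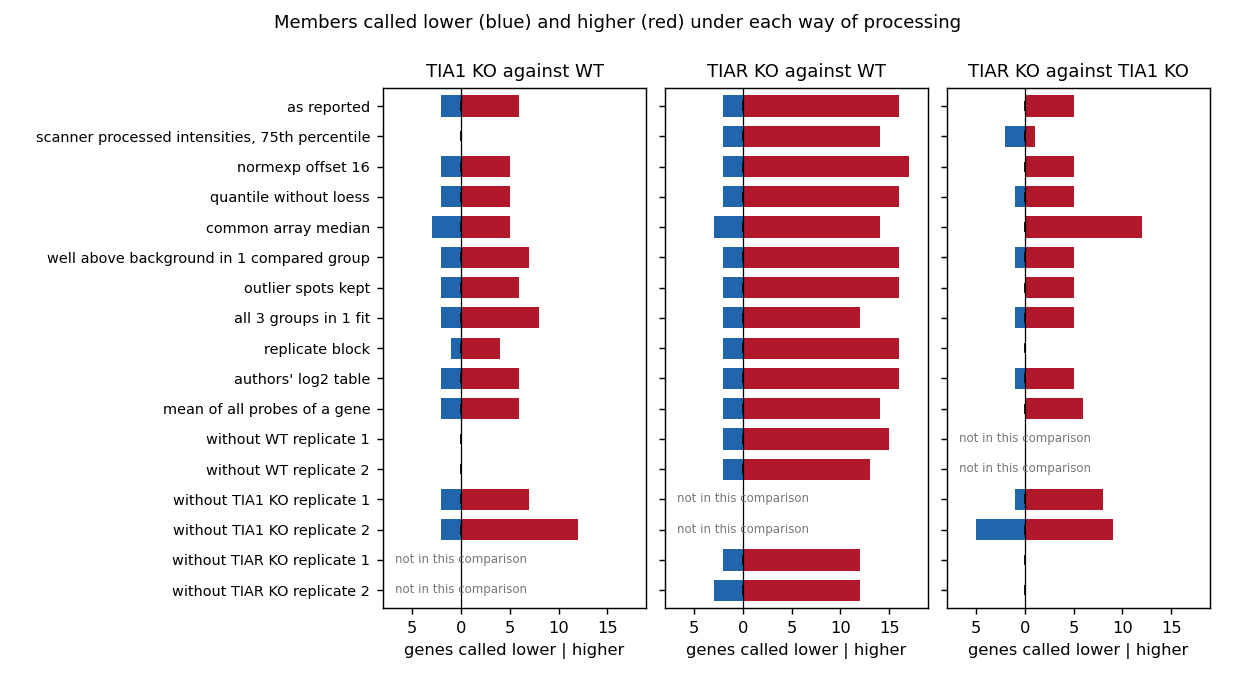
Numbers of the 46 genes called lower (blue, to the left) and higher (red, to the right) in each comparison (panels), as reported and under each alternative (vertical axis). TIAR KO against WT stays between 12 and 17 higher genes, while TIA1 KO against WT falls to 0 with the processed intensities and without either WT array.

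Enzymes and inhibitors that act on the same cascade were counted as well. Of 16 activators and regulators, 3 were called higher in TIA1 KO MEF, and 5 higher and 1 lower in TIAR KO MEF, where 4.51% and 7.18% of all gene names were called. Plau, the urokinase that starts plasmin formation, gave 8.15 and 8.08 with WT RNA, 11.05 and 11.35 with TIA1 KO RNA, and 9.31 and 9.27 with TIAR KO RNA, and was called higher in both, by 3.09 and 1.18.

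Further genes of that list were called in TIAR KO MEF. Serpine2, protease nexin 1, was at 6.66 and 6.62 in WT MEF and 9.93 and 10.44 in TIAR KO MEF, at least 9.71-fold higher. Pcsk6, a proprotein convertase, was 1.90 higher, Plat, the tissue plasminogen activator, 1.53 higher, and Sdc4, a heparan sulfate proteoglycan, 1.17 higher. The call of Sdc4 was lost with a common array median (0.73), and those of Sdc4, Plat and Plau, the last in both knockouts, with the processed intensities. Lrp1, the endocytic receptor that clears several MMP and TIMP proteins, was called higher in TIA1 KO MEF, by 1.34, but with a common array median the difference was -0.24 without a call. Under that scaling 1 gene of the list was called higher and 5 lower in TIA1 KO MEF, where the median difference over all probes was -0.67. The share of all gene names called under it is not reported here. Furin, which cuts the propeptide of membrane-type MMPs and ADAMTS proteases, and Reck, a membrane-anchored MMP inhibitor, were not called, with differences from WT of 0.55 and -0.69 for Furin and -0.09 and -0.81 for Reck.

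Of 22 related proteases and ADAMTS-like proteins, 2 were called higher in TIA1 KO MEF, and 2 higher and 2 lower in TIAR KO MEF, where 4.51% and 7.18% of all gene names were called. With a common array median (median difference over all probes -0.67) 2 were higher and 5 lower in TIA1 KO MEF. With the processed intensities (1.98 over all probes) none was called there by limma, with 10 higher and 1 lower at an unadjusted p under 0.05. Adam19, which sheds neuregulin, gave 6.84 and 7.03 with WT RNA, 13.38 and 13.31 with TIA1 KO RNA, and 10.61 and 11.59 with TIAR KO RNA, and was called higher in both, by 6.41 and 4.16. Adam12 rose by 3.14 in TIA1 KO MEF, and Adamtsl1 was at least 3.85-fold higher in TIAR KO MEF. Adam8, a leukocyte sheddase, gave 12.60 and 12.46 in WT MEF against 9.67 and 9.36 in TIAR KO MEF, and fell by 3.01. Adamtsl5 fell by 3.05 there. Bmp1, the procollagen C-proteinase, which removes the other propeptide, was not called, at 1.12 and 0.88.

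Of 16 substrates of these proteases, TIA1 KO MEF had 9 called higher and TIAR KO MEF had 8, against 2.88% and 4.36% of all gene names. None was called lower by limma, and in each knockout 1 was lower at an unadjusted p under 0.05. The median difference of the list was 1.87 for TIA1 KO and 1.45 for TIAR KO. With a common array median it was 0.59 and 1.10, so that the order of the knockouts turned, and with the processed intensities 2.53 and 1.83. Col3a1, a procollagen that ADAMTS2 processes, gave 9.52 and 9.08 with WT RNA, 15.59 and 15.65 with TIA1 KO RNA, and 15.16 and 16.65 with TIAR KO RNA. The proteoglycan decorin (Dcn) gave 6.57 and 6.62, 9.24 and 9.29, and 15.67 and 15.82 in the same order, and was called in all 3 comparisons. Col1a1, Col1a2, Col5a1, Fn1, Vcan and Bgn were higher in both knockouts as well, by 1.67 (Vcan) to 3.43 (Bgn) in TIA1 KO MEF. Col2a1 was called in TIA1 KO MEF alone of the 2, at least 30.2-fold over WT. With a common array median 5 of the 9 calls in TIA1 KO MEF held, those of Col2a1, Col3a1, Fn1, Dcn and Bgn, and Col1a1, Col1a2, Col5a1 and Vcan stayed above WT without a call. With the processed intensities none of the 16 was called by limma in TIA1 KO MEF, where 12 were higher at an unadjusted p under 0.05. The median difference over all probes was 1.98 there.

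Markers of fibroblasts and of smooth muscle were counted in the same way. Of the 12 fibroblast markers, 7 were called higher for TIA1 KO and 9 for TIAR KO, against 2.88% and 4.36% of all gene names, and 5 of the 12 are also in the list of substrates. With a common array median (median difference over all probes -0.67) 5 were called higher and 2 lower for TIA1 KO. With the processed intensities (1.98 over all probes) none was called there by limma, with 7 higher at an unadjusted p under 0.05. Their summed signal (log2) was 19.17 and 19.21 with WT RNA, 20.43 and 20.40 with TIA1 KO RNA, and 20.51 on both TIAR KO arrays, with S100a4 brightest in WT MEF. Of 4 smooth muscle markers, 1 was called higher for TIA1 KO and 3 for TIAR KO, against 2.88% and 4.36% of all gene names. With the processed intensities none of the 4 was called for TIA1 KO by limma, with 2 higher at an unadjusted p under 0.05. Their summed signal was 12.87 and 13.20 with WT RNA, 17.59 and 17.74 with TIA1 KO RNA, and 18.48 and 18.30 with TIAR KO RNA, most of it from Acta2, while Myh11 was called in neither. The part of these shifts in the protease results was not tested.

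Leukocyte markers were listed because Mmp25, Mmp8 and Mmp9 are made by these cells. Of 9, Itgam was called higher in TIA1 KO MEF and Cd14 lower in TIAR KO MEF (4.51% and 7.18% of all gene names were called in these comparisons), and the summed signal was 13.52 and 13.45 with WT RNA, 14.41 and 14.24 with TIA1 KO RNA, and 13.35 and 13.36 with TIAR KO RNA. Ptprc, the common leukocyte antigen, Emr1 and Lyz2 were well above background on no array. Of 7 epithelial markers, 1 was called higher in TIA1 KO MEF (Krt8) and 3 in TIAR KO MEF (Krt8, Krt18 and Cdh1), against 2.88% and 4.36% of all gene names, with a summed signal of 10.30 and 10.22 with WT RNA, 10.44 and 10.77 with TIA1 KO RNA, and 11.40 and 11.36 with TIAR KO RNA. No endothelial marker of 4 was called by limma, with 1 higher at an unadjusted p under 0.05 in each knockout, and Kdr was the brightest of them on all arrays. Once arrays had a common median neither Itgam nor Krt8 was called in TIA1 KO MEF, and 2 of the 9 leukocyte markers and 1 of the 4 endothelial ones were called lower there. The median difference over all probes was then -0.67. With the processed intensities no leukocyte, epithelial or endothelial marker was called in TIA1 KO MEF by limma. There 4, 5 and 2 of them were higher at an unadjusted p under 0.05, with a median difference over all probes of 1.98. The part of these markers in the protease results was not tested.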

How the data were processed

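MEF of 3 groups (WT, TIA1 KO, TIAR KO) were measured on 1-colour arrays, 2 per group. The authors deposited, for each array, the spot intensities measured by Agilent Feature Extraction 10.7.3.1, not normalized between arrays, with background and quality flags. They also deposited a table of normalized log2 values, used here only as an alternative. The submitters' processing notes name limma. The files give probe positions on mm9, and where in a transcript a probe lies was not analysed here.

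Following the methods, mean intensities were corrected for the median local background by normexp (offset 50), log2-transformed, fitted to the mean array by loess in 1 pass and quantile normalized. The global normalization that the methods also name was not applied. Control spots and outlier spots were left out, and spots of a probe were averaged. For each comparison, limma's lmFit and eBayes were run on its 4 arrays, with no covariate, and p-values were adjusted over all probes by Benjamini-Hochberg. A probe was called at an adjusted p under 0.05 and a fold above 2. The fit was tested on simulated data.

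The 46 members and all gene lists were chosen with earlier results of these data known. Named with values were the TIMP genes and every member that was called in at least 1 comparison and whose higher group had both arrays well above background. Other members were named where probes disagreed or no group had signal, and genes of the other lists where called. Furin, Reck, Bmp1, Mmp8, Mmp19, Mmp24, Adamts6, Adamts8 and Adamts15 were named after their values were seen. Of 61 member probes with a RefSeq accession, 59 were found in RefSeq (GRCm38.p6), all with the same symbol.

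Alternatives were processed intensities of the scanner software with the 75th percentile of each array subtracted, a smaller normexp offset (16), no loess, a common array median, a filter on dim probes (both arrays of a compared group well above background), outlier spots kept, all groups in 1 fit, a replicate block, the authors' values, the mean of a gene's probes, and each array left out. The number of arrays limits the precision. Some genes of the lists are counted but not reported singly here. R 4.3.3, limma 3.58.1, statmod 1.5.0, Python 3.11.15, numpy 2.4.6, pandas 2.3.3 and matplotlib 3.10.9 were used.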

Additional observations from a re-analysis of the deposited data

Results flagged for a closer look

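TIAR KO and TIA1 KO MEF differed by a direct test for 5 genes, each higher in TIAR KO MEF. Genotype, strain and slide row cannot be told apart in this comparison. The log2 differences were 3.54 for Adamts2, 3.08 for Mmp23 and 1.63 for Adamts1. Mmp13 (3.02) and Adamts16 (1.55) were well above background on no TIA1 KO array, and their folds are bounds, at least 6.14 and 2.19. Of the 5 genes, Adamts2 and Mmp23 were called higher than in WT MEF in both knockouts, and the other 3 in TIAR KO MEF only. All 5 calls were lost with the replicate block and without either TIAR KO array, and 4 of them with the processed intensities. The TIAR KO arrays lay close together for each gene, such as 14.14 and 14.13 for Mmp23 and 8.88 and 8.97 for Adamts16. A call selects for such closeness, so it is no separate support. The dimmer probe of Adamts13, which no comparison of brightest probes used, lay 2.38 above WT in TIA1 KO MEF (log2), where both arrays were well above background and both WT arrays were not.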

How the results depend on the processing

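Of the called differences of named genes, recomputed values kept direction and call 79 times in TIA1 KO MEF (32 lost the call). A further 1, that of Timp2 with a common array median, turned direction and lost its call. Direction and call were kept 228 times in TIAR KO MEF (24 lost it) and 50 times in the direct comparison (20 lost it). Uncalled differences of TIMP genes gained a call 3 times in TIA1 KO MEF, 2 times in TIAR KO MEF and 4 times in the direct comparison. With the processed intensities the counts were 0 higher and 0 lower in TIA1 KO against WT MEF (31 and 1 at an unadjusted limma p under 0.05), and 1 higher and 2 lower in TIAR KO against TIA1 KO MEF. The median difference over all probes was 1.98 and -1.85 there, and 0.63 in the direct comparison with a common array median. With a common array median 12 genes were higher in the direct comparison, and 1 was lower there without loess, with the filter on dim probes, with all groups in 1 fit and with the authors' table. Leaving out single arrays gave 0 to 12 higher and 0 to 2 lower genes in TIA1 KO against WT MEF, 12 to 15 and 2 to 3 in TIAR KO against WT MEF, and 0 to 9 and 0 to 5 in the direct comparison. The labels do not say whether replicate numbers pair the samples. Deviations of same-numbered arrays correlated at 0.03, 0.08 and -0.07. These values were taken after normalization between arrays, which removes shifts of whole arrays, and cannot settle the pairing. With the replicate block the counts were 4 higher and 1 lower in TIA1 KO, 16 and 2 in TIAR KO, and 0 higher in the direct comparison (12 at an unadjusted limma p under 0.05). With a common array median the TIA1 KO difference from WT turned to -0.88 for Timp1, -0.17 for Timp2 and -0.41 for Timp3, and that of Timp2 between the knockouts to 0.36. Timp4, never well above background, turned to 2.99 in TIA1 KO MEF and -2.82 between the knockouts with the processed intensities, and in TIAR KO MEF to 0.17 with these, 0.023 without loess, 0.039 with a common median and 0.03 with the authors' table, while leaving out single arrays gave -0.105 (WT replicate 1) to 0.063 (WT replicate 2). The cause of these changes was not tested.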
